A study of Mus musculus with 28 samples.

Results

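Macrophages sorted from the kidneys of double-mutant mice, which lack both Fcgr2b and Rhbdf2, were compared with the same cells from wild-type mice by RNA sequencing. The comparison used every macrophage library whose genotype label reads FcR2b-/- Rhbdf2-/- or WT, 3 of each, which makes 6 of the 28 libraries of the series. Libraries are called by genotype and replicate, numbered in the order of deposit, and 3 values in a row are those of replicates 1, 2 and 3. All mice were female C57BL/6 littermates of 7 to 9 months, and the sorted cells were CD45+ F4/80hi CD11b+ Ly6G- Ly6C-. The titles of the double-mutant libraries name the Rhbdf2 knockout alone, and their genotype label, which gives both genes as their description does, was followed. Both groups were set beside 3 Fcgr2b-/- and 3 Rhbdf2-/- libraries of the same cells. The labels name no Cre or promoter that would limit a deletion to some cells. They also leave unsaid whether 1 mouse gave 1 library, and the p-values then cover the spread among libraries, part of which may be technical. In sorted bulk RNA, fewer cells of a kind and less RNA per cell cannot be told apart.

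Macrophages of the kidney take up immune complexes and dying cells between the tubules, present antigen, and can turn from surveillance to inflammation or to repair. Fcgr2b encodes the inhibitory receptor for IgG, which restrains B cells and myeloid cells, and mice without it develop autoantibodies and lupus-like nephritis on this background. Rhbdf2 encodes iRhom2, a rhomboid-like protein without protease activity that myeloid cells need to bring ADAM17 to their surface, where this protease releases TNF and ligands of the EGF receptor such as HB-EGF. The comparison addresses how macrophages of mice that lack both genes differ from normal ones.

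Double-mutant macrophages held more RNA of many genes of lipid-associated and repair macrophages (16 of 24 called higher) and of lysosomes (12 of 31). The same was seen for inhibitory, checkpoint and co-stimulatory receptors (12 of 23) and complement (7 of 16). Some genes stand in more than 1 list, such as Ctsb, Ctsd and Ctsl among the lipid-associated and the lysosomal genes. Less RNA was found of Slc40a1, Mmp13 and Mgl2. Among 10523 genes, 1943 (18.5%) were called with limma on log2(CPM+1), where CPM is the count scaled to library size and called means an adjusted p (Benjamini-Hochberg) under 0.05. Of these 1040 (9.88%) were higher and 903 (8.58%) were lower in the double mutant, with a median log2 change of -0.02 over all genes. With only these 2 groups in the fit, 599 genes were called, 427 higher and 172 lower. A change of at least 1 on the log2 scale was reached by 290 of the higher and 523 of the lower genes. Genes whose 2 groups did not overlap numbered 1830 higher (17.4%) and 1579 lower (15%). In the same fit 5551 genes (52.8%) were called in Fcgr2b-/- against wild-type and 2 (0.019%) in Rhbdf2-/- against wild-type, and these comparisons share the wild-type libraries.

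The number of genes called rested on single libraries. It was 537 without wild-type replicate 1, 450 without wild-type replicate 2, 3007 without wild-type replicate 3 and 715 without double-mutant replicate 1. A total of 417 genes (3.96% of all), 323 higher and 94 lower, were called in the same direction whichever of the 6 libraries was left out. Genes below are said to have held when they are among these 417. Wild-type replicate 3 stood apart from its group. Its title ends in a number, as do those of the double-mutant libraries, while wild-type replicates 1 and 2 end in letters. The labels do not say whether this marks a separate preparation, and whether preparation had a part in the results was not tested. Its Spearman correlation with the double-mutant libraries, across genes, was 0.933 to 0.963, against 0.871 to 0.923 for wild-type replicate 1 and 0.89 to 0.937 for wild-type replicate 2. Listed genes drew 30852099 to 34871519 reads per library over the 12 macrophage libraries.

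Before the gene groups, the labels were checked on the deleted genes and their neighbours. Fcgr2b read 538.9, 540.4 and 715.1 CPM in wild-type and 454.8, 479.0 and 549.9 CPM in double-mutant macrophages, a log2 change of -0.27 that was not called (SE 0.16, adjusted p = 0.268). Rhbdf2 read 16.2, 21.0 and 25.0 CPM in wild-type and 26.6, 21.6 and 18.1 CPM in double-mutant macrophages, also not called (log2 change 0.09, SE 0.21, adjusted p = 0.796). Groups overlapped for both genes. The sources used here do not name the deleted exons, so a whole-gene value checks neither label. Fcgr2b was called higher in the double mutant than in Fcgr2b-/- macrophages, which read 286.8, 256.2 and 382.2 CPM (log2 change 0.70, adjusted p = 0.00789).

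Genes near the deleted genes were examined next. Of 70 measured genes within 5 Mb of Fcgr2b on chromosome 1, 31 (44.3%) were called in the double mutant, 12 higher and 19 lower, against 18.5% of all genes. Ifi202b, an interferon-inducible gene of the HIN-200 family and a candidate lupus gene in mice, read 0.585, 0.169 and 0.0906 CPM in wild-type and 248.5, 243.5 and 252.7 CPM in double-mutant macrophages. Its levels were 151.0, 196.7 and 160.6 CPM in Fcgr2b-/- and 0.118, 0.122 and 0.191 CPM in Rhbdf2-/- macrophages, so every library with an Fcgr2b-/- label was high and every other library low. The log2 change of 7.62 (SE 0.16, adjusted p = 4.19e-11) had the smallest adjusted p of the genes named here. Pydc4, a gene with a pyrin domain in the same cluster, went the other way, from 143.4, 149.2 and 176.9 CPM to 2.18, 10.3 and 1.81 CPM (log2 change -5.08, SE 0.40, adjusted p = 2.3e-05). Near-identical copies lie in this cluster, and values of its single members are uncertain because the handling of shared reads is unknown.

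Between Fcgr2b and this cluster, Igsf9, which encodes a cell adhesion protein of the immunoglobulin superfamily, fell from 123.8, 139.9 and 136.7 CPM to 11.9, 16.4 and 20.6 CPM (log2 change -2.99, SE 0.18, adjusted p = 3.62e-06). F11r, which encodes the junctional adhesion molecule JAM-A, fell from 298.6, 289.6 and 347.8 CPM to 25.4, 93.4 and 46.2 CPM (log2 change -2.67, SE 0.37, adjusted p = 0.00117). Groups did not overlap for either gene. Mndal, another HIN-200 gene, rose from 152.6, 169.7 and 191.7 CPM to 382.9, 353.6 and 403.9 CPM (log2 change 1.15, SE 0.14, adjusted p = 0.000574). Fcgr2b-/- macrophages held 165.7 CPM of Mndal ± 27.6 (SD, n = 3), and the double mutant was higher than these too (log2 change 1.20, adjusted p = 0.000229). All 5 of these genes held.

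Within 1 Mb of Rhbdf2 on chromosome 11, 15 of 38 measured genes (39.5%) were called, 10 higher and 5 lower, against 18.5% of all genes. In this window 2 were called in Rhbdf2-/- and 22 in Fcgr2b-/- against wild-type, where 0.019% and 52.8% of all genes were called. BC018473, a transcript without a gene name, read 1.08, 0.252 and 1.36 CPM in wild-type and 420.8, 1020 and 596.3 CPM in double-mutant macrophages (log2 change 8.44, SE 1.54, adjusted p = 0.00543), and it held, but it was not called with voom on recovered reads (adjusted p = 0.417). In Rhbdf2-/- macrophages it read 683.1, 676.5 and 1343 CPM, and in Fcgr2b-/- macrophages 0.487, 360.8 and 316.9 CPM. Fcgr2b-/- replicate 1 was thus at the wild-type level while the other 2 Fcgr2b-/- libraries were somewhat below the lowest double-mutant library. St6galnac1, a sialyltransferase gene, read 7.33, 12.1 and 9.32 CPM in double-mutant and 30.2, 29.5 and 32.7 CPM in Rhbdf2-/- macrophages. Wild-type libraries listed it at 0.0300, 0.113 and 0.0300 CPM, where 0.0300 CPM stands for no read, so the fitted log2 change of 3.30 depends on the pseudocount (adjusted p = 0.000463). Srsf2, which encodes a splicing factor and lies beside the overlapping gene Mfsd11, fell from 9.50, 10.7 and 9.84 CPM to 3.89, 2.94 and 2.80 CPM (log2 change -1.40, SE 0.21, adjusted p = 0.00192). Whether these changes come with the chromosome segments around the deleted genes or with the loss of the genes themselves cannot be told apart.

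**Figure D1:**
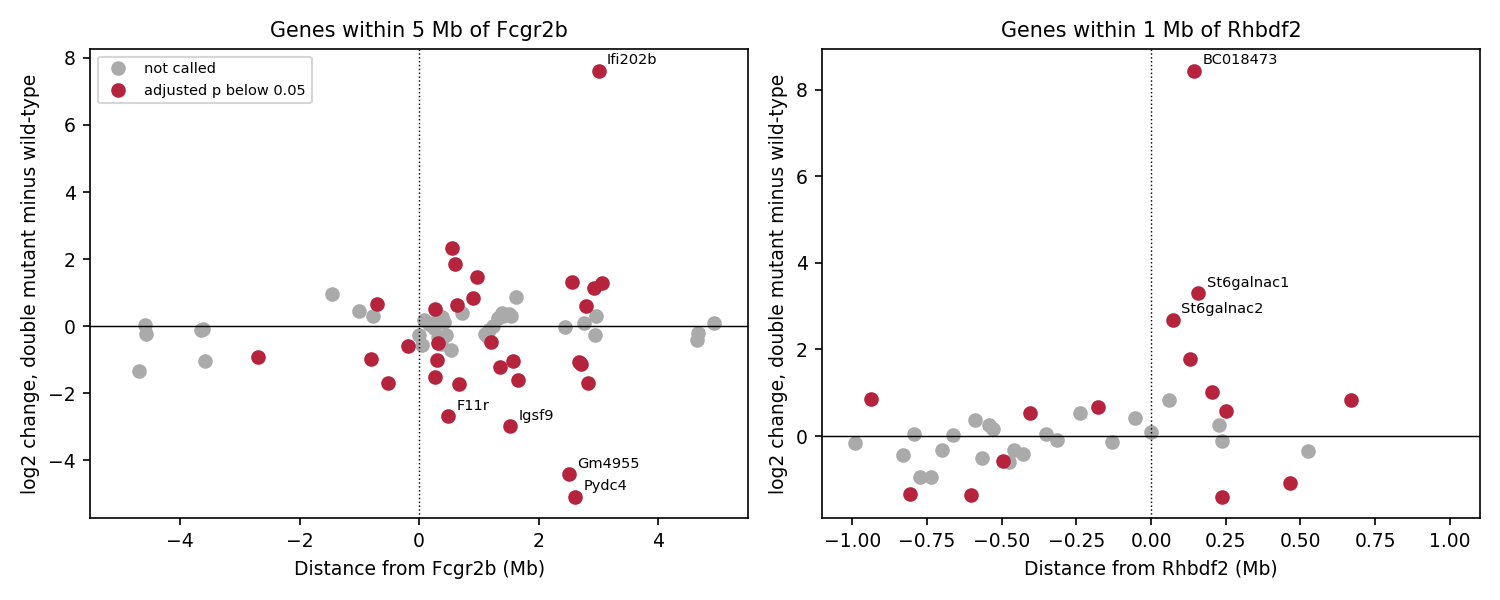
Each point is a gene, placed by its distance in Mb from Fcgr2b (left) or Rhbdf2 (right), with the log2 change of double-mutant minus wild-type macrophages on the vertical axis and called genes in red. Of 70 genes within 5 Mb of Fcgr2b 31 were called, and of 38 genes within 1 Mb of Rhbdf2 15 were called, with Ifi202b at 7.62 and BC018473 at 8.44.

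The sorted cells carried macrophage transcripts in every library. Emr1, which encodes F4/80, read 2447, 2323 and 3283 CPM in wild-type and 3117, 3143 and 4246 CPM in double-mutant macrophages and was not called (log2 change 0.39, adjusted p = 0.2). Ptprc, which encodes CD45, was not called either (log2 change 0.16, adjusted p = 0.61). Itgam, which encodes CD11b, rose from 123.0, 127.1 and 223.3 CPM to 720.6, 442.6 and 705.7 CPM (log2 change 2.00, SE 0.28, adjusted p = 0.00145), although CD11b was part of the gate. Lyz2, the macrophage lysozyme gene, rose from 3102, 2442 and 5217 CPM to 13840, 10920 and 11240 CPM (log2 change 1.81, SE 0.28, adjusted p = 0.00233). Groups did not overlap for Itgam or Lyz2, and both held. Ly6c1, a gene of the Ly6C antigen that the gate excluded, read 15.4, 11.6 and 4.36 CPM in wild-type and 1.41, 4.37 and 0.986 CPM in double-mutant macrophages, with overlapping groups (log2 change -1.81, SE 0.45, adjusted p = 0.0202). Its call was lost without wild-type replicate 1 or 2 or double-mutant replicate 1 or 3. Ly6g and Ly6c2 were not analysed here. Of 15 resident macrophage markers 4 were called higher and 0 lower, with a median log2 change of 0.39, and 1 without wild-type replicate 1 or replicate 2. Of 9 monocyte markers 3 were called higher (Treml4, Spn and Fn1) and 0 without wild-type replicate 1 or 2 or double-mutant replicate 2. Ccr2, the chemokine receptor of inflammatory monocytes, read 403.4, 349.9 and 833.5 CPM in wild-type and 1117, 976.2 and 657.1 CPM in double-mutant macrophages and was not called (adjusted p = 0.0974).

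Transcripts of kidney tubules and of mitochondrially encoded genes were lower in the double mutant and in wild-type replicate 3 than in the other 2 wild-type libraries. The 13 distal tubule and collecting duct markers summed to 9347, 6978 and 2186 CPM in wild-type and 699.5, 3030 and 614 CPM in double-mutant macrophages. Of these, 9 were called lower and 0 higher, with a median log2 change of -2.02, and for 7 of the 9 the groups overlapped. Pvalb, which encodes the calcium buffer of the distal convoluted tubule, was 1 of the other 2 and changed by -2.54. None was called lower without wild-type replicate 1, without wild-type replicate 2 or without double-mutant replicate 1, and 2 were called without double-mutant replicate 3. The 18 proximal tubule markers summed to 1361 to 2825 CPM in wild-type and 1064 to 1289 CPM in double-mutant macrophages, and 0 were called, or 3 lower without wild-type replicate 3. For 4 of the 18 the groups did not overlap, with the double mutant lower, as was the case for 15% of all genes. The 12 mitochondrially encoded genes summed to 35730, 27520 and 12990 CPM in wild-type and 12580, 12240 and 9925 CPM in double-mutant macrophages. Of these 8 were called lower, with a median log2 change of -0.98, and 0 without wild-type replicate 1, wild-type replicate 2 or double-mutant replicate 1, 1 without double-mutant replicate 3 and 4 without double-mutant replicate 2. Of 34 nuclear genes of the respiratory chain 3 (8.82%) were called lower, near the 8.58% of all genes, with a median of -0.18. Uqcrc1 and Cox6a1 were among them. That count was 1 without wild-type replicate 1 or 2 and 13 without wild-type replicate 3.

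Markers of other cells were also summed, and their calls stand beside 9.88% of all genes called higher and 8.58% called lower. The 10 B and plasma cell markers summed to 1367 to 3135 CPM in wild-type and 1074 to 1436 CPM in double-mutant macrophages, with 5 called lower and 1 higher, or 1 lower without double-mutant replicate 1, 2 without wild-type replicate 1 and 3 without wild-type replicate 2. The 14 T and NK cell markers summed to 309.1 to 408.1 and 299.3 to 672.8 CPM, with 1 called higher, or 0 without wild-type replicate 1 or 2. Of 13 neutrophil markers 2 were measured, and Csf3r, a receptor gene that macrophages also express, carried nearly all of their sum of 72.0 to 105.3 and 159.4 to 168.7 CPM. The 10 dendritic cell markers had a median log2 change of -0.29, with 0 called higher and 1 lower (Siglech), while their sum was 92.9 to 171.4 and 169.7 to 250.2 CPM. The 4 endothelial markers summed to 43.4 to 54.8 and 76.0 to 120.1 CPM, with 1 called higher, or 0 without wild-type replicate 1 or 2 or double-mutant replicate 1. The part of these cells in the results was not tested. Levels in whole kidney of the same genotypes were set beside the calls. Of called lower genes measured in both tables, 664 of 853 (77.8%) had a higher mean level in wild-type kidney than in wild-type macrophages, against 366 of 944 (38.8%) of called higher genes and 60.8% of all 9884 genes. The tables were normalized separately, and the part of tubule RNA in the falls was not tested. A fit added after the data had been seen kept 4507 genes, those without a higher level in kidney and those not measured there. Of these 941 were called, 693 higher and 248 lower, where 1943 of all 10523 genes were called. For the largest falls, Slc40a1, Mmp13, Mgl2 and Igsf9 held, while Tfap2b, Ppp1r1a, Uroc1 and Pvalb, which tubule cells express, each lost their call without wild-type replicate 2 (adjusted p = 0.0567, 0.0826, 0.0797 and 0.0831).

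**Figure D2:**
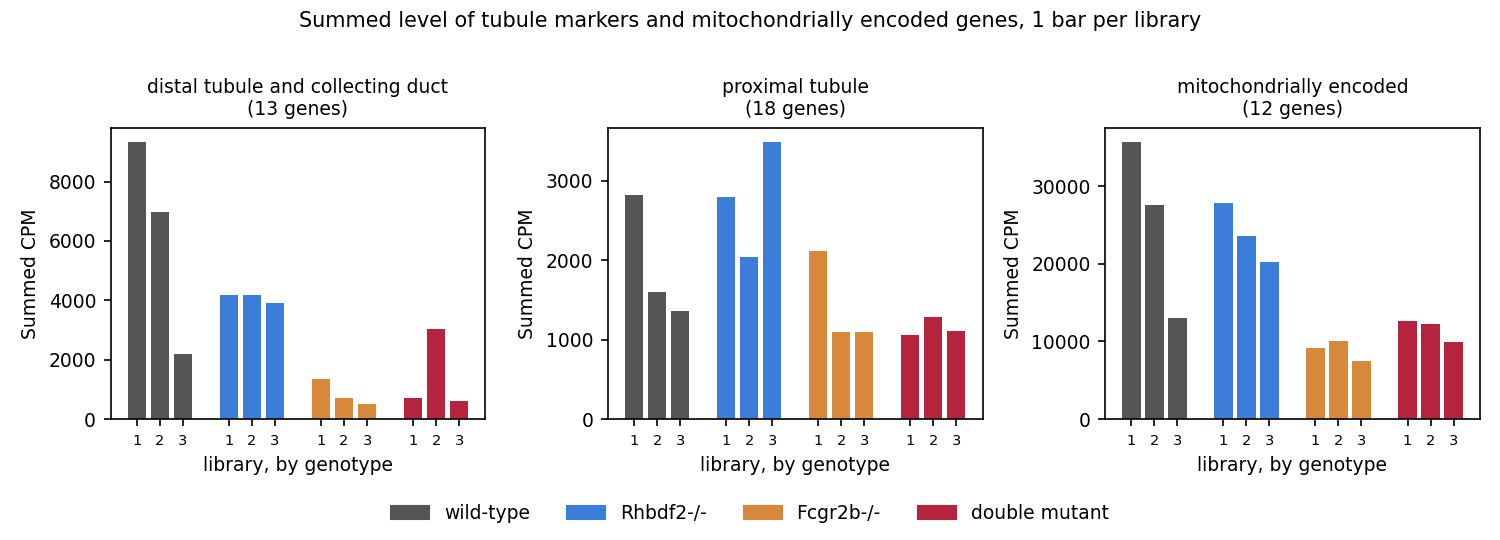
Bars give the summed CPM of distal tubule markers (left), proximal tubule markers (middle) and mitochondrially encoded genes (right) in each of the 12 macrophage libraries, 1 bar per library, coloured by genotype. Wild-type replicates 1 and 2 are highest for distal tubule markers (9347 and 6978 CPM), and wild-type replicate 3 (2186 CPM) lies within the range of the double-mutant libraries.

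Genes of lipid-associated and repair macrophages made up the list with the highest share called higher among the 44 lists examined. Of 24 measured members 16 were called higher and 0 lower, with a median log2 change of 1.32, and 13 held. Counts were 13 to 17 whichever of the 6 libraries was left out. Gpnmb, a transmembrane glycoprotein gene induced by lysosomal stress, read 0.615, 0.418 and 1.72 CPM in wild-type and 475.4, 138.5 and 13.5 CPM in double-mutant macrophages (log2 change 5.75, SE 0.99, adjusted p = 0.00419). All double-mutant libraries were above all wild-type libraries, but double-mutant replicate 3 was far below the other 2. With voom on the recovered reads Gpnmb was not called (adjusted p = 0.285). Trem2, the lipid-sensing receptor of tissue macrophages, showed the same order of double-mutant libraries, with 28.1, 22.4 and 27.3 CPM in wild-type and 198.6, 148.3 and 60.1 CPM in double-mutant macrophages (log2 change 2.19, SE 0.34, adjusted p = 0.0024).

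Lpl, Lipa and Igf1 moved more evenly over the 3 double-mutant libraries. Lpl, which encodes lipoprotein lipase, rose from 697.5, 565.3 and 434.1 CPM to 1921, 1489 and 1782 CPM (log2 change 1.63, SE 0.22, adjusted p = 0.000991). Lipa, the acid lipase that frees cholesterol from esters in the lysosome, rose from 733.2, 679.8 and 732.2 CPM to 1451, 1485 and 1408 CPM (log2 change 1.02, SE 0.11, adjusted p = 0.000327). Igf1, a growth factor that macrophages supply in repair, rose from 76.4, 79.4 and 80.3 CPM to 197.1, 195.5 and 259.2 CPM (log2 change 1.44, SE 0.16, adjusted p = 0.000348). Groups did not overlap for any of the 3 genes. Pparg and Nr1h3 encode nuclear receptors that switch on lipid uptake and cholesterol efflux. Pparg rose from 26.3, 26.9 and 27.4 CPM to 96.6, 86.5 and 79.7 CPM (log2 change 1.67, SE 0.19, adjusted p = 0.000309). Nr1h3, which encodes LXRα, rose from 9.79, 6.57 and 4.87 CPM to 197.4, 152.1 and 62.9 CPM (log2 change 3.99, SE 0.39, adjusted p = 0.000129). It was listed with the macrophage transcription factors, and its double-mutant libraries followed the order seen for Gpnmb and Trem2. The efflux transporter gene Abcg1, a target of LXRα, rose by 1.30 (SE 0.17, adjusted p = 0.000765), while Abca1, another such target, changed by 0.23 and was not called (adjusted p = 0.663). Spp1, the osteopontin gene, which is often placed in the same programme, read 935.1, 665.4 and 240.9 CPM in wild-type and 766.4, 572.1 and 174.2 CPM in double-mutant macrophages, with overlapping groups (adjusted p = 0.702).

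Calls among genes of sterol synthesis and uptake depended on single libraries. Of 20 measured members 9 were called higher and 1 lower, with a median log2 change of 0.68. The higher count was 1 without double-mutant replicate 1 or wild-type replicate 2, 2 without wild-type replicate 1 and 4 without double-mutant replicate 3. Msmo1, an oxidase of cholesterol synthesis, rose from 44.6, 55.0 and 72.4 CPM to 150.4, 114.9 and 174.9 CPM (log2 change 1.35, SE 0.22, adjusted p = 0.00307) and held. Dhcr7, which catalyses the last step of the pathway, went the other way, from 59.1, 66.6 and 77.3 CPM to 26.9, 28.0 and 31.2 CPM (log2 change -1.20, SE 0.13, adjusted p = 0.000222), and it held as well.

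Lysosomal genes were examined beside these. Of 31 measured members 12 were called higher and 0 lower, with a median log2 change of 0.53, and 6 held, among them Ctsb, Ctsd, Gla, Grn and Npc2. The count was 6 without wild-type replicate 1 or 2, 8 without double-mutant replicate 1 and 7 when the fit held the 2 groups alone. Ctsd, the aspartic protease cathepsin D, rose from 622.5, 561.1 and 459.5 CPM to 3430, 2184 and 1079 CPM (log2 change 1.88, SE 0.38, adjusted p = 0.00863). Gla, the α-galactosidase gene, rose from 5.58, 8.93 and 7.96 CPM to 50.2, 31.9 and 15.1 CPM (log2 change 1.84, SE 0.33, adjusted p = 0.0049). For both, groups did not overlap and double-mutant replicate 3 was the lowest of its group. Npc2, the cholesterol carrier of the lysosome, was even, rising from 764.3, 774.4 and 1020 CPM to 1651, 1681 and 1577 CPM (log2 change 0.95, SE 0.14, adjusted p = 0.00161). Gusb and Smpd1, other lysosomal hydrolase genes, each had a log2 change of -0.28 and were not called. Acp5, the tartrate-resistant acid phosphatase found in lysosomes of osteoclasts and activated macrophages, was among the largest rises, from 37.7, 45.3 and 37.7 CPM to 598.8, 561.4 and 311.0 CPM (log2 change 3.52, SE 0.28, adjusted p = 2.68e-05).

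The promoters of lysosomal genes are known to carry the CLEAR element bound by TFEB and related factors, whose core is TCACGTGA. The core reads the same on both strands and contains the E-box CACGTG. In RefSeq promoters of build GRCm38.p6, taken from 250 bases before to 50 bases after the start, 4 of the 22 lysosomal members with a promoter entry held this core (18.2%), against 1.12% of 27025 genes. Of the 8 called higher members with an entry, 3 held it, and the fourth match was in Mcoln1. Their stretches are shown 5′ to 3′ on the strand of the gene, at chrX:134601146-134601245 (minus) for Gla, chr7:142387872-142387971 (minus) for Ctsd and chr2:164833673-164833772 (plus) for Ctsa, with each match in capitals, since these are the called genes whose promoters hold the element.
Gla: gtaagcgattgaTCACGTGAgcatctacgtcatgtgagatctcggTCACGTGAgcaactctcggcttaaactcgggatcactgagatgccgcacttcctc
Ctsd: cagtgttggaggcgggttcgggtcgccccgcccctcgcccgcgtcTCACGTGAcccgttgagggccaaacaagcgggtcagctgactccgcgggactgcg
Ctsa: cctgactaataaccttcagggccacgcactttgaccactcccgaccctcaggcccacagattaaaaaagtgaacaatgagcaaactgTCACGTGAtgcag
Gla held 2 copies of the core in this stretch and Ctsd and Ctsa 1 each. Ctsa, the carboxypeptidase that protects lysosomal glycosidases, had a log2 change of 0.57 (SE 0.15, adjusted p = 0.0225), and its call was kept without 2 of the 6 libraries only. A match describes the letters and shows no binding.

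**Figure D3:**
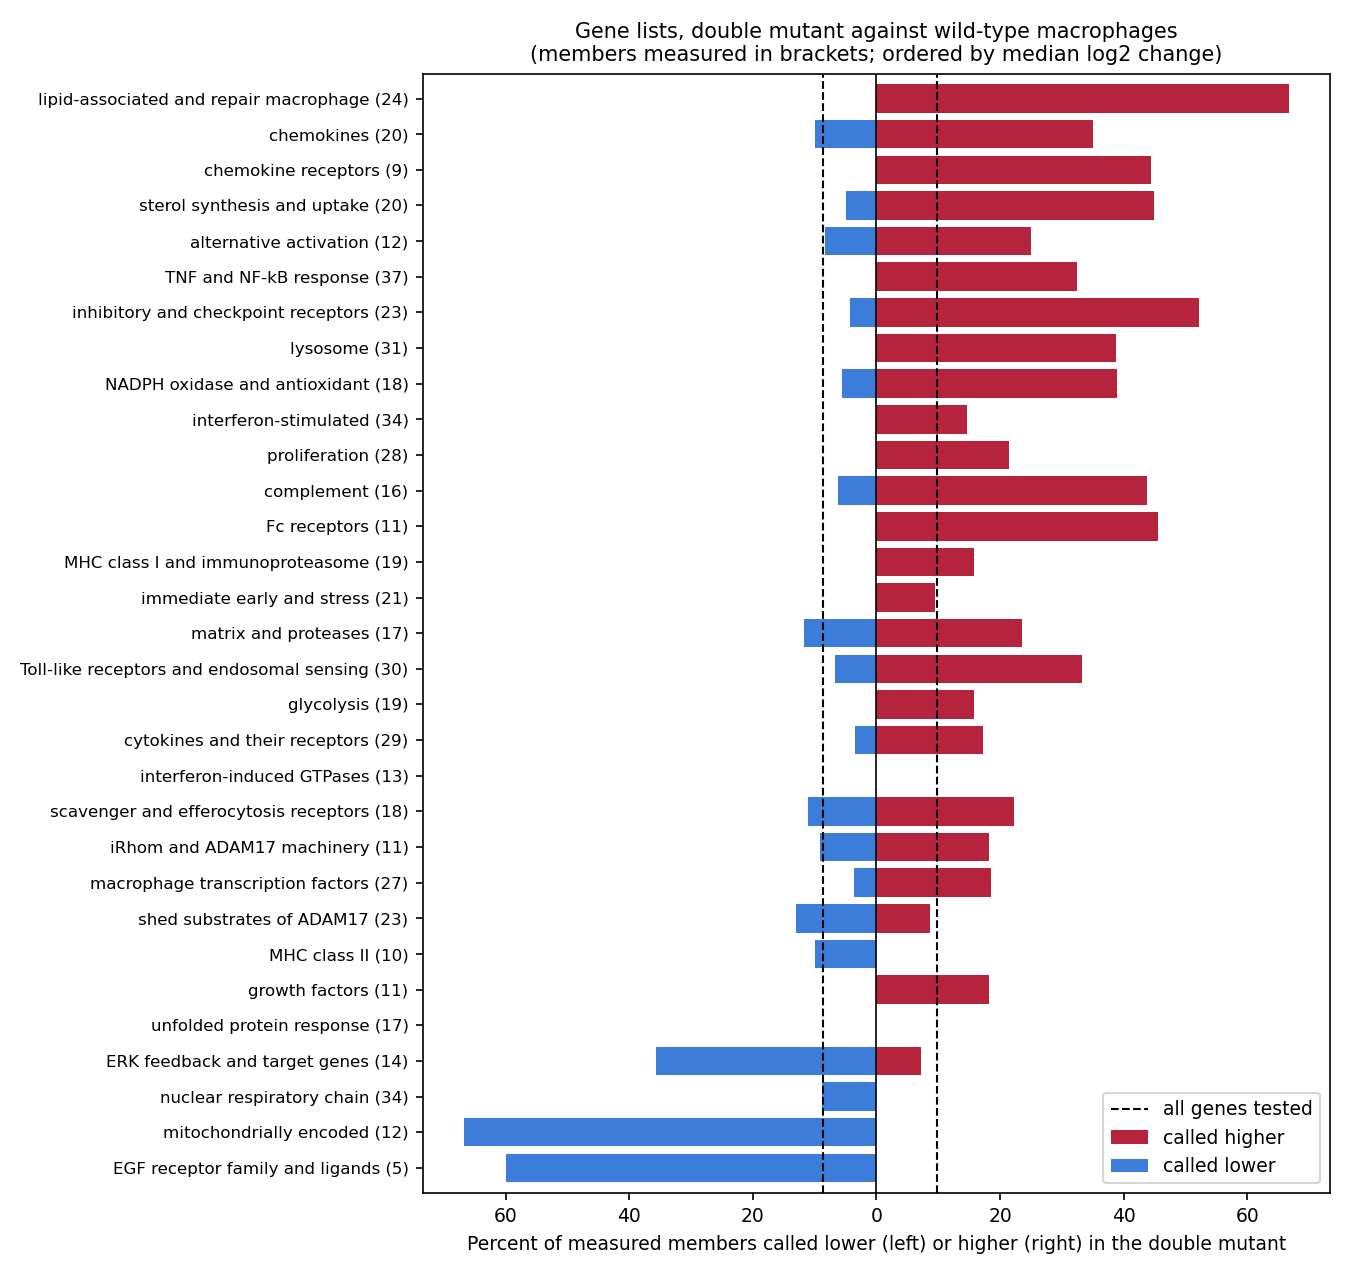
Bars give the percent of measured members of each list that were called lower (blue, left) or higher (red, right) in double-mutant against wild-type macrophages, with lists ordered by their median log2 change and the number of measured members in brackets. Dashed lines mark all genes tested (8.58% lower, 9.88% higher). Lipid-associated genes reach 66.7% called higher and mitochondrially encoded genes 66.7% called lower.

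Of 20 measured chemokine genes 7 were called higher and 2 lower, with a median log2 change of 1.14, and 5 held. The higher count was 15 without wild-type replicate 3, and the lower count was 0 without wild-type replicate 1 or 2 or double-mutant replicate 1. Ccl9, a chemokine of myeloid cells, rose from 109.4, 90.6 and 90.0 CPM to 674.2, 537.1 and 440.8 CPM (log2 change 2.48, SE 0.17, adjusted p = 1e-05). Ccl8, a ligand of CCR8 in mice, rose from 6.43, 5.49 and 25.4 CPM to 242.0, 143.0 and 94.8 CPM (log2 change 3.79, SE 0.48, adjusted p = 0.000732). Cxcl13, the attractant of B cells, rose from 0.410, 0.196 and 0.514 CPM to 16.2, 17.5 and 16.4 CPM (log2 change 3.69, SE 0.43, adjusted p = 0.000393). No groups overlapped, though wild-type replicate 3 was the highest wild-type library for Ccl8. Ccl3, Ccl4 and Il1b, early inflammatory genes, were not called, and wild-type replicate 3 lay within or above the double-mutant range. For Ccl4 the values were 223.3, 241.9 and 1391 CPM in wild-type and 634.3, 490.1 and 1114 CPM in double-mutant macrophages (adjusted p = 0.471).

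Among cytokines the secreted antagonist of interleukin-1 stood out. Il1rn rose from 1.26, 1.08 and 2.82 CPM to 256.0, 204.4 and 57.8 CPM (log2 change 5.80, SE 0.45, adjusted p = 2.25e-05), with double-mutant replicate 3 lowest of its group. Il12b, a subunit of interleukin-12 and interleukin-23, rose from 1.93, 1.17 and 4.03 CPM to 10.8, 19.8 and 7.22 CPM (log2 change 1.99, SE 0.39, adjusted p = 0.00734). Of 29 cytokine and receptor genes 5 (17.2%) were called higher and 1 (3.45%) lower, the decoy receptor gene Il1r2. Among all genes 9.88% were called higher and 8.58% lower. The higher count was 3 without wild-type replicate 2 and 10 without wild-type replicate 3. The lower count was 0 without wild-type replicate 1 or 2. Anxa1, the annexin A1 gene known for damping inflammation, rose from 9.79, 7.43 and 20.6 CPM to 395.9, 293.7 and 137.6 CPM (log2 change 4.34, SE 0.38, adjusted p = 5.36e-05). Capg, which encodes an actin-capping protein, rose by 4.28 (SE 0.44, adjusted p = 0.000193). All these rises held.

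Complement genes followed. Of 16 measured members 7 were called higher and 1 lower, with a median log2 change of 0.49. The higher count was 4 without wild-type replicate 2, and 4 of the genes held. C3, the central component, rose from 10.7, 11.2 and 15.9 CPM to 169.1, 114.9 and 46.4 CPM (log2 change 2.86, SE 0.38, adjusted p = 0.000852). C4b rose from 10.9, 10.3 and 18.9 CPM to 128.4, 85.9 and 56.5 CPM (log2 change 2.64, SE 0.47, adjusted p = 0.00488). Cfp, the properdin gene, rose from 54.7, 66.0 and 100.5 CPM to 375.6, 262.1 and 183.5 CPM (log2 change 1.86, SE 0.31, adjusted p = 0.00342). For all 3 the groups did not overlap and the order of the double-mutant libraries was the same. C1qa, C1qb and C1qc, which encode the recognition protein of the classical arm, were not called, C1qa with groups that did not overlap (log2 change 0.42, adjusted p = 0.054). The only member called lower was Cd59a, a membrane inhibitor of complement, with overlapping groups. Its call was lost without wild-type replicate 1 or 2 or double-mutant replicate 1.

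**Figure D4:**
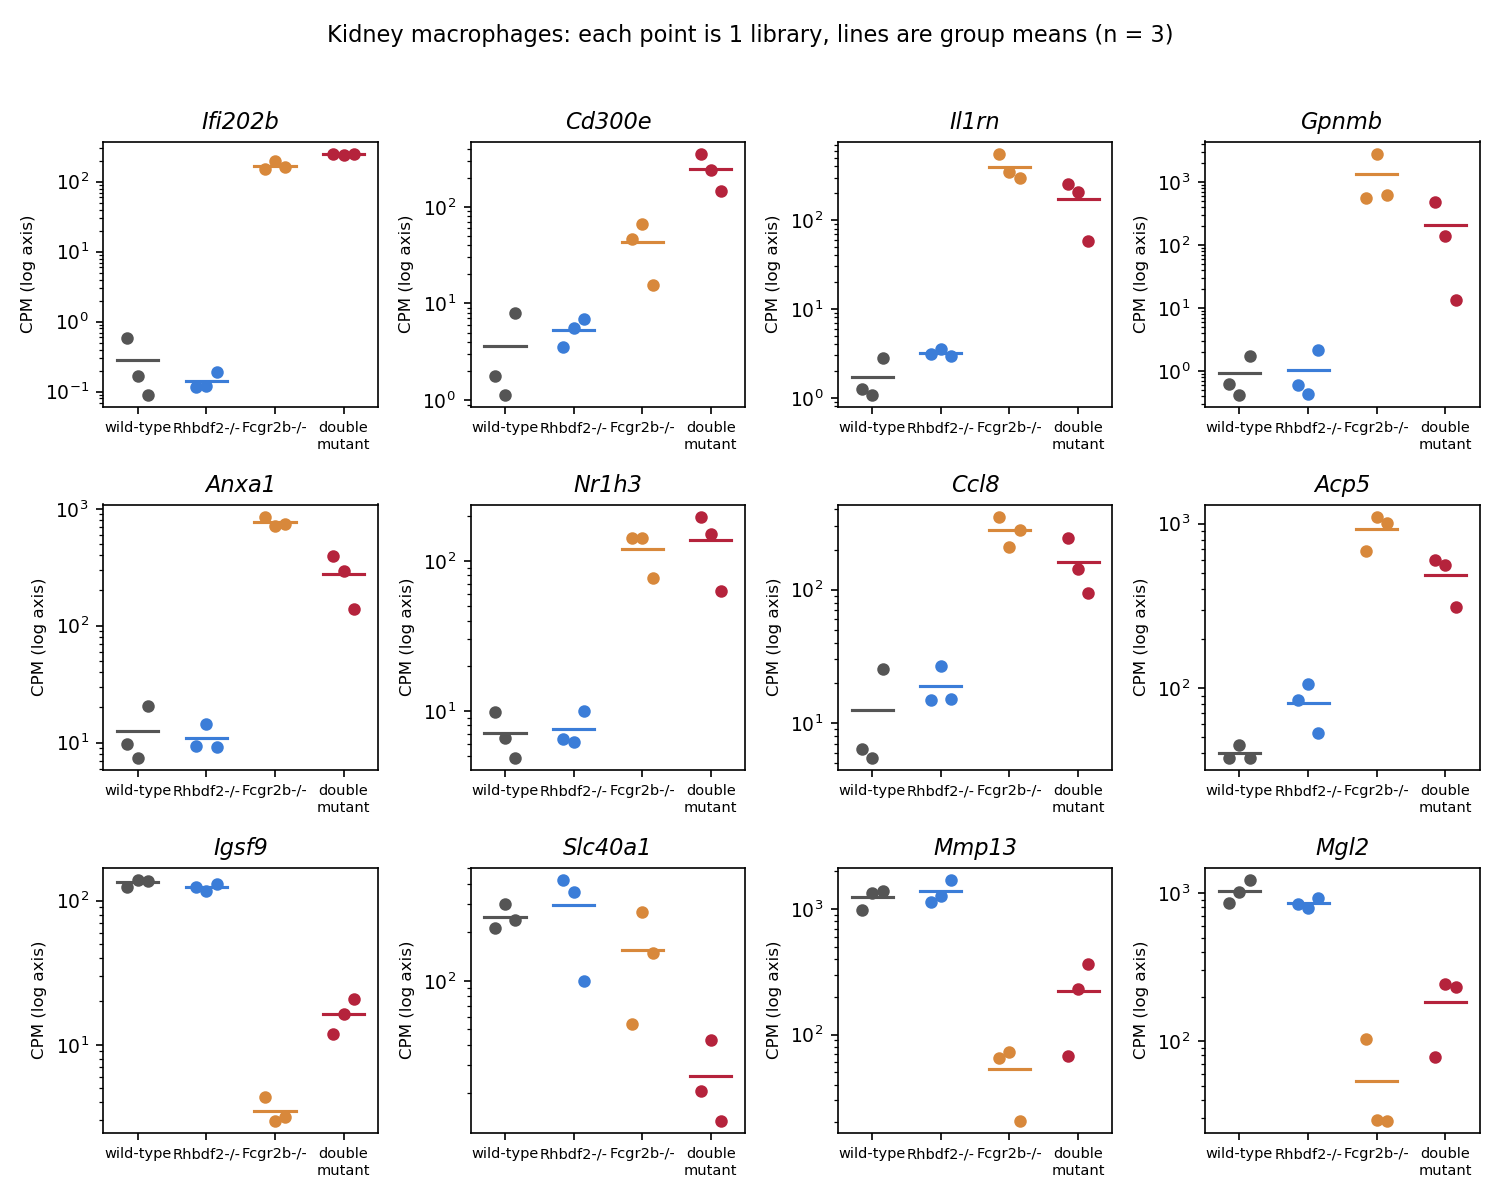
Each panel shows 1 gene in CPM on a log axis for the 12 macrophage libraries, 1 point per library with a line at the group mean (n = 3), by genotype. The first 8 genes are higher and the last 4 lower in double-mutant than in wild-type libraries, from 7.62 (Ifi202b) to -3.36 (Slc40a1) on the log2 scale, with no overlap of those groups.

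Inhibitory, checkpoint and co-stimulatory receptors were taken as 1 list. Of 23 measured members 12 were called higher and 1 lower, with a median log2 change of 0.60. The higher count was 5 without wild-type replicate 1 or 2 and 6 without double-mutant replicate 1, and 5 genes held. Clec12a, an inhibitory lectin that senses uric acid crystals, rose from 124.0, 91.6 and 221.9 CPM to 789.6, 748.6 and 718.6 CPM (log2 change 2.46, SE 0.26, adjusted p = 0.00027). Pirb, a paired immunoglobulin-like receptor for class I molecules, rose from 408.4, 426.1 and 474.1 CPM to 924.2, 828.3 and 935.1 CPM (log2 change 1.04, SE 0.14, adjusted p = 0.000885), and its family has close copies. Cd40, the receptor for the T cell ligand CD40L, rose from 29.7, 27.0 and 49.2 CPM to 122.6, 111.1 and 103.8 CPM (log2 change 1.69, SE 0.26, adjusted p = 0.00235). Cd300e and Cd300lb, which belong to the CD300 family of receptors for membrane lipids, were among the largest rises. Cd300e, an activating member, rose from 1.78, 1.14 and 8.02 CPM to 356.1, 239.0 and 145.1 CPM (log2 change 5.94, SE 0.58, adjusted p = 0.000123). Cd300lb rose by 4.30 (SE 0.31, adjusted p = 1.14e-05) and Cd300lf by 2.01 (SE 0.28, adjusted p = 0.00111). These 3 genes held.

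Calls among Fc receptor genes depended on the wild-type libraries. Of 11 measured genes of Fc receptors and their signalling 5 were called higher (Fcgr1, Fcer1g, Fcgrt, Syk and Ptpn6) and 0 lower, with a median log2 change of 0.42. None of them was called without wild-type replicate 1 or without wild-type replicate 2, 2 were called without double-mutant replicate 1 or 2, and 3 without double-mutant replicate 3. Fcgr1, the high-affinity receptor, read 311.0, 334.5 and 506.4 CPM in wild-type and 689.3, 617.8 and 702.3 CPM in double-mutant macrophages (log2 change 0.83, SE 0.17, adjusted p = 0.0102). Fcgr4, an activating receptor beside Fcgr2b, read 366.3, 429.0 and 805.6 CPM in wild-type and 469.8, 293.9 and 279.0 CPM in double-mutant macrophages and was not called (adjusted p = 0.144).

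In the machinery that iRhom2 belongs to, the protease gene changed. Adam17 rose from 210.5, 198.4 and 244.9 CPM to 414.4, 397.3 and 436.5 CPM (log2 change 0.93, SE 0.12, adjusted p = 0.000779). Fcgr2b-/- macrophages held 397.1 CPM ± 51.5 (SD, n = 3), and the difference of the double mutant from these was 0.07 (adjusted p = 0.691), which does not show equal levels. Adam17 held. Of the 11 measured genes of this machinery 2 (18.2%) were called higher and 1 (9.09%) lower, where 9.88% and 8.58% of all genes were. The higher count was 1 without wild-type replicate 1 or 2. Called lower was Rhbdf1, which encodes iRhom1 and fell by 0.78 (SE 0.21, adjusted p = 0.0266). This call was lost without wild-type replicate 1, double-mutant replicate 1 or 2, or wild-type replicate 2 (adjusted p = 0.11 for the last). Tnf, whose product ADAM17 releases, read 16.4, 18.7 and 34.6 CPM in wild-type and 32.8, 13.2 and 33.9 CPM in double-mutant macrophages, with overlapping groups (log2 change 0.15, SE 0.33, adjusted p = 0.778). These are RNA levels and say nothing of the protein shed. Of 37 measured genes of the TNF and NF-kB response 12 were called higher and 0 lower, with a median of 0.60. The count ranged from 2 without wild-type replicate 2 to 21 without wild-type replicate 3, and Cd40 and Nfkb1 held.

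In the EGF receptor family and its ligands 0 genes held. Of feedback and target genes of the ERK pathway downstream of it 2 of 14 held (14.3%), against 3.96% of all genes. Egfr read 5.53, 4.55 and 2.24 CPM in wild-type and 1.70, 1.16 and 0.722 CPM in double-mutant macrophages (log2 change -1.18, SE 0.38, adjusted p = 0.0489), and the call was lost without each of the libraries except wild-type replicate 3. Of 5 measured members of the receptor family and its ligands 3 were called lower (Egfr, Erbb2 and Egf), and 0 without wild-type replicate 1 or 2 or double-mutant replicate 3. Egf, a product of the distal tubule, read 1315, 1001 and 323.6 CPM in wild-type and 83.1, 355.6 and 80.2 CPM in double-mutant macrophages, with overlapping groups. Hbegf was not analysed here. Of the 14 measured ERK genes 5 (35.7%) were called lower and 1 (7.14%) higher, with a median of -0.09, where 8.58% and 9.88% of all genes were. The lower count was 2 without wild-type replicate 2. Dusp6, the phosphatase that switches ERK off and is induced by it, fell from 396.7, 392.6 and 288.4 CPM to 106.0, 188.3 and 204.5 CPM (log2 change -1.15, SE 0.23, adjusted p = 0.00795). Etv1, a transcription factor gene downstream of ERK, fell from 7.54, 7.85 and 4.72 CPM to 1.65, 1.62 and 1.94 CPM (log2 change -1.47, SE 0.25, adjusted p = 0.00417). Both held and neither pair of groups overlapped. Wild-type replicate 3, which was low in tubule markers, was the lowest wild-type library for both, and the part of tubule RNA in these falls was not tested.

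Outside the neighbourhood of Fcgr2b, the largest falls that held were those of Slc40a1, Mmp13 and Mgl2. Slc40a1, which encodes the iron exporter ferroportin, fell from 211.7, 299.0 and 236.7 CPM to 20.7, 43.2 and 13.5 CPM (log2 change -3.36, SE 0.61, adjusted p = 0.00542). Mmp13, a collagenase gene, fell from 980.9, 1336 and 1404 CPM to 67.4, 230.1 and 364.1 CPM (log2 change -2.77, SE 0.55, adjusted p = 0.00845). Mgl2, the lectin CD301b found on some macrophages and dendritic cells, fell from 855.7, 1021 and 1234 CPM to 77.9, 241.5 and 231.4 CPM (log2 change -2.64, SE 0.47, adjusted p = 0.00510). No groups overlapped. Matrix proteases moved in both directions, since Mmp14, a membrane-bound protease gene, rose from 7.22, 4.49 and 11.6 CPM to 84.0, 58.0 and 32.4 CPM (log2 change 2.73, SE 0.33, adjusted p = 0.000574), and Plaur, the urokinase receptor gene, rose by 3.23 (SE 0.35, adjusted p = 0.000277). An immunoglobulin transcript, Igkc, was lower in every double-mutant library than in any wild-type library. Igkc read 271.7, 112.6 and 1347 CPM in wild-type and 20.51, 69.4 and 17.8 CPM in double-mutant macrophages (log2 change -3.51, SE 0.84, adjusted p = 0.0178), and the call was lost without wild-type replicate 1 or double-mutant replicate 1 (adjusted p up to 0.0684). Cd22, a B cell lectin that macrophages can also express, rose by 1.44 (SE 0.28, adjusted p = 0.00717).

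Of 30 measured genes of Toll-like receptors and endosomal sensing 10 were called higher and 2 lower, with a median of 0.27, and the higher count was 3 without wild-type replicate 1 or 2 and 4 without double-mutant replicate 1. Tlr8, an endosomal RNA sensor, rose from 23.7, 21.3 and 27.6 CPM to 76.2, 59.8 and 60.5 CPM (log2 change 1.40, SE 0.18, adjusted p = 0.000694). Slc15a4, a transporter that endosomal receptors need, rose by 0.85 (SE 0.16, adjusted p = 0.00565). Nlrp3, the inflammasome sensor gene, fell from 45.6, 46.2 and 40.5 CPM to 20.9, 18.7 and 26.7 CPM (log2 change -0.98, SE 0.14, adjusted p = 0.00152). All 3 held. Of 18 genes of the NADPH oxidase and antioxidant defence 7 were called higher and 1 lower, with a median of 0.53, and 4 held (Cyba, Ncf4, Prdx1 and Rac2). The higher count was 4 without wild-type replicate 1 or 2. Ncf1, which encodes the p47 subunit, was the member called lower (log2 change -0.94), a call lost without wild-type replicate 1 or 2 or double-mutant replicate 1.

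Most interferon-stimulated and class II genes were higher in the double mutant than in the Fcgr2b-/- single mutant, while few were called against wild-type. Against wild-type, 5 of 34 interferon-stimulated genes (14.7%) were called higher (Oasl1, Irf7, Ifi44, Ifi27l2a and Ifitm3) and 0 lower, with a median log2 change of 0.52. Of all genes 9.88% were called higher. The count was 0 without wild-type replicate 1 or 2, 1 without double-mutant replicate 1 and 19 without wild-type replicate 3, whose summed level of 7588 CPM was close to the 7691 to 8104 CPM of the double mutant, while wild-type replicates 1 and 2 summed to 4023 and 4613 CPM. Against Fcgr2b-/- macrophages, 33 of 34 were higher in the double mutant and 0 lower (median 1.24), where 29.6% of all genes were called, 15.8% higher and 13.8% lower. That count was 25 to 33 whichever of the 6 Fcgr2b-/- and double-mutant libraries was left out. Irf7, the master regulator of type I interferon, read 220.6, 276.5 and 416.2 CPM in wild-type and 700.4, 812.9 and 675.1 CPM in double-mutant macrophages (log2 change 1.30, SE 0.31, adjusted p = 0.0175), a call lost without wild-type replicate 1 or 2 or double-mutant replicate 1 (adjusted p up to 0.0787). The core of the interferon-stimulated response element, searched on both strands, was present in 14 of 24 promoters of the list (58.3%) and in 3.99% of all, but in 1 of the 4 called higher members with an entry. An NF-kB site was present in 4 of 29 promoters of the TNF list (13.8%, against 0.466%) and a sterol response element core in 1 of 13 of the sterol list (7.69%, against 1.44%), and in 0 of the called higher members of either.

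Of 10 measured MHC class II genes 0 were called higher and 1 lower against wild-type (H2-Oa), with a median of 0.11, where 8.58% of all genes were called lower. Their summed level was 170600 to 244000 CPM in double-mutant and 173500 to 251800 CPM in wild-type macrophages, which overlap. In Fcgr2b-/- macrophages it was 61560 to 105000 CPM, and 9 of 10 members were higher in the double mutant than there and 0 lower, or 7 to 9 with any of the 6 libraries left out.

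By the median over list members, double-mutant libraries lay between wild-type and Fcgr2b-/- libraries for lipid-associated, lysosomal and cell-cycle genes. Single members did not all follow. Against Fcgr2b-/- macrophages 13.8% of all genes were called lower and 15.8% higher. Of 24 lipid-associated genes 17 were lower and 3 higher in the double mutant than in Fcgr2b-/- macrophages (median -1.22), with 12 to 17 lower when any 1 of those 6 libraries was left out. Of 31 lysosomal genes 11 were lower and 0 higher (median -0.19), with a count of 7 without double-mutant replicate 2 or 3 or Fcgr2b-/- replicate 2 or 3. Igf1, at 611.2 CPM ± 43.8 (SD, n = 3) in Fcgr2b-/- macrophages, was lower in the double mutant (log2 difference -1.50, adjusted p = 0.000166). Nr1h3 was not called between these groups (log2 difference 0.10, adjusted p = 0.884). Cd300e, at 42.9 CPM ± 25.8 in Fcgr2b-/- macrophages, was higher in the double mutant by 2.63 (adjusted p = 0.00549). Of 28 proliferation genes 6 (21.4%) were called higher than wild-type and 0 lower (median 0.51), where 9.88% of all genes were called higher. That count was 0 without wild-type replicate 1 or 2 and 1 without double-mutant replicate 1 or 2. In the same list 26 of 28 were lower in the double mutant than in Fcgr2b-/- macrophages (median -1.69), or 20 to 27 with 1 of the 6 libraries left out.

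**Figure D5:**
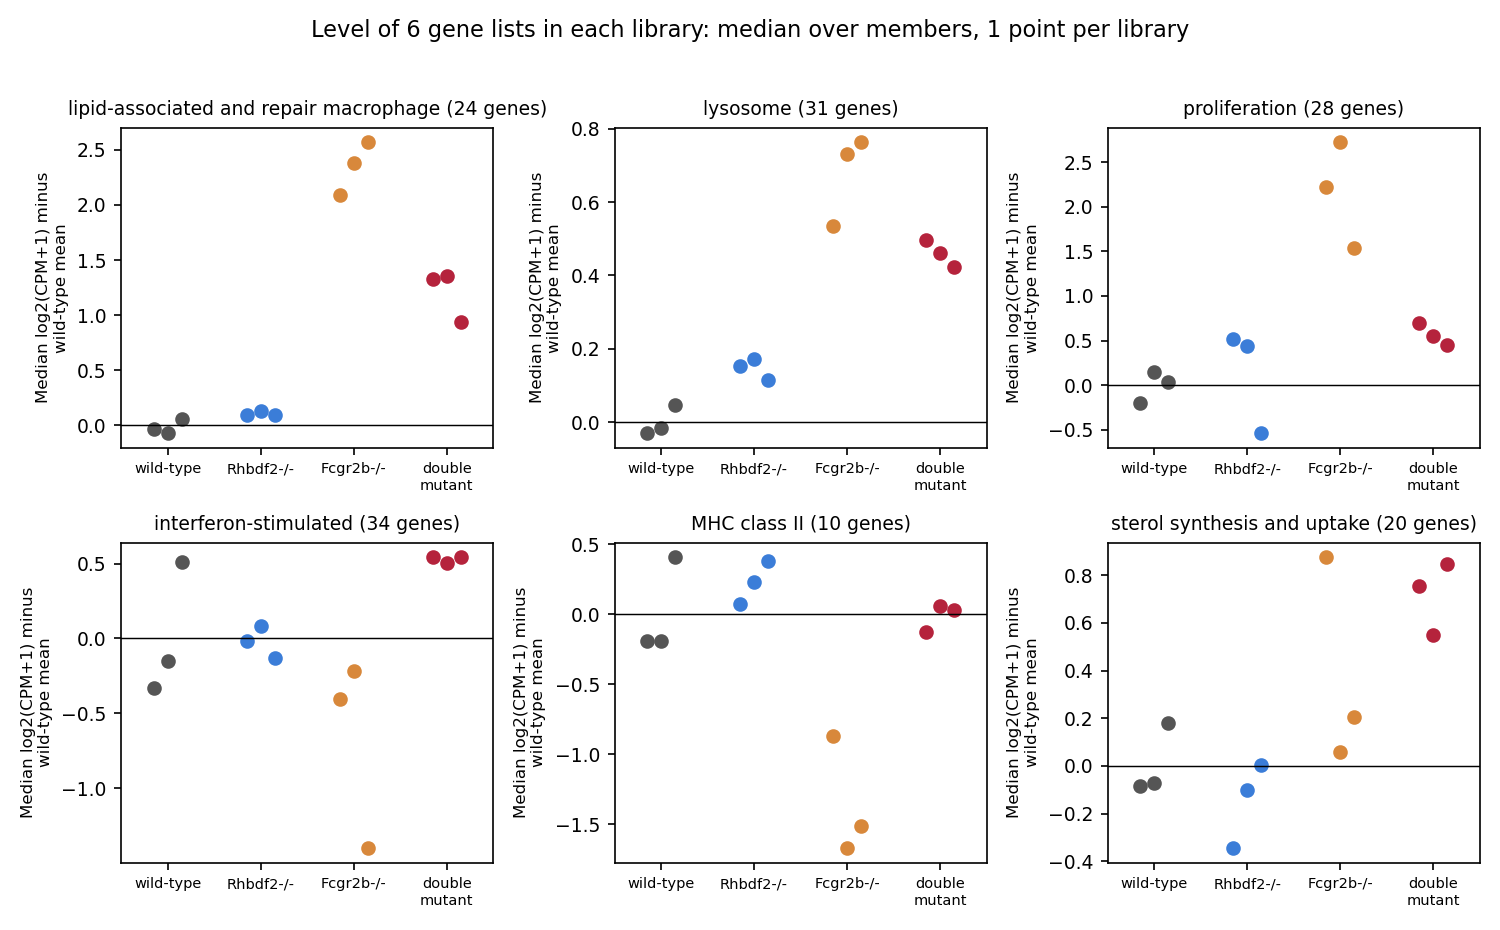
Each point is a library, and its height is the median over the members of a list of log2(CPM+1) minus the wild-type mean of the gene, by genotype, for 6 lists. Double-mutant libraries lie between wild-type and Fcgr2b-/- libraries for lipid-associated genes (0.937 to 1.35 against 2.09 to 2.57 in Fcgr2b-/-) and above the 3 Fcgr2b-/- libraries for interferon-stimulated genes (0.503 to 0.543 against -1.40 to -0.221).

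In whole kidney of the same 2 genotypes, with 4 libraries each and a separate normalization by the authors, 898 of 12315 genes (7.29%) were called. Each kidney genotype had its own sequencing lane, and the effects of lane and of genotype cannot be told apart in that table. Ifi202b rose there by 2.29 on the log2 scale (adjusted p = 0.00308), Ccl9 by 2.14 (adjusted p = 0.0111) and Il1rn by 2.34 (adjusted p = 0.0264). Emr1, which was not called in sorted cells, rose by 2.26 in whole kidney (adjusted p = 0.0137). Acp5, one of the largest rises in sorted macrophages, was not called in whole kidney (log2 change 0.15, adjusted p = 0.645).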

How the data were processed

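RNA of the sorted cells, labelled as enriched for poly(A), was amplified with a low-input SMART-Seq kit, per the labels' protocols. Such kits do not mark strand. Per the file headers, the authors deposited a log2 CPM value for each macrophage library, with their own log2 fold changes, p-values and FDR, which served here as an alternative. Genome builds mm10 and GRCm38 appear among the submitters' processing notes. No aligner or counting program is named there, so overlapping genes and close copies are uncertain. CPM is the antilog of the deposited value. Low values were whole multiples of 1 read in 100% of cases (tolerance 0.1 read), 1 read being worth 0.0277 to 0.033 CPM.

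A linear model of log2(CPM+1) was computed by limma 3.58.1 (R 4.3.3) with a mean-variance trend, all 12 macrophage libraries in 4 groups and no covariate. p-values were adjusted by Benjamini-Hochberg over the 10523 genes of each comparison. Adding 1 CPM shrinks the changes of low genes. The procedure was tested on data simulated without shifts shared by the genes of a library. That test cannot speak to the dependence on single libraries. The design named a count test for the case that the file held counts, which it does not. Alternatives were other pseudocounts, scalings and tests, fits of the 2 groups alone and fits without each library. Gene positions are those of the deposited table, and promoters came from RefSeq (GRCm38.p6).

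The comparison and the 44 gene lists were chosen with earlier results of these data known. Genes named by rule were the deleted, gate and EGF receptor pathway genes; the 12 largest rises and 12 largest falls that were called, averaged a log2 CPM of 1 or more, did not overlap and had neither a predicted nor an immunoglobulin name; up to 4 called members of each list by p; and up to 6 called genes near each deleted gene by p. Other list members, and genes given for a count (Abca1, Abcg1, C1qa, C1qb, C1qc, Ccl3, Ccl4, Ccr2, Cd59a, Ctsa, Ctsb, Fcer1g, Fcgr4, Gusb, Ifi44, Il1b, Lpl, Ncf1, Smpd1, Spp1, Mcoln1), were named after their values were seen. Genes without a row were not analysed here, and some list members are not reported here. No 2 macrophage libraries held identical values.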

Additional observations from a re-analysis of the deposited data

Results flagged for a closer look

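For 33 named genes the effect of the Fcgr2b deletion was compared between mice with and without Rhbdf2 by the interaction term of the fit, limma with Benjamini-Hochberg adjustment over all genes, and 3 differed. The count over all genes is not reported here, so the 3 are given as single genes and not as a share. Acp5 rose by 4.48 on the log2 scale in Fcgr2b-/- against wild-type and by 2.57 in the double mutant against Rhbdf2-/-, a difference of -1.91 (adjusted p = 0.0141). Cd300lb rose by 4.78 and by 3.06, a difference of -1.71 (adjusted p = 0.0263). Igsf9, which lies near Fcgr2b, fell by 4.91 and by 2.88, a difference of 2.03 (adjusted p = 0.0025).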

How the results depend on the processing

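The number of genes called in the double mutant against wild-type, 1943, became 599 (427 higher, 172 lower) when the fit held only the 2 groups. It became 941 when only the 4507 genes not higher in kidney, or not measured there, were tested. With 1 of the 6 libraries left out it was 450 to 3007. It was within 1.5 times under other pseudocounts, the deposited scale, median-ratio and quantile scaling, voom on recovered reads (1534), limma without the trend and in the authors' deposited table (1547). A mean CPM minimum of 1 removed no gene. The number called against Fcgr2b-/-, 3113, was 1874 among the 4507 genes and 2217 to 3456 with 1 library left out. Of 143 called genes named by the rule, 72 kept their call under every setting in which they were tested and none changed sign. Of the 143, 94 were among the 4507 genes. Quantile scaling moved the median of all genes from -0.02 to 0.03. No paired analysis was possible because the labels give the double-mutant and wild-type macrophage libraries no shared numbers. With 3 libraries per group, a gene with no call is not shown to be unchanged.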
